A study of Homo sapiens with 26 samples.

Results

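The response of HCT116 cells to arsenite was compared between cells with a mutant and cells with a wild-type form of the RNA-binding protein IGF2BP1. HCT116 is a human colorectal carcinoma line. The 12 libraries of the comparison, out of 26 in the series, were all libraries labelled mCherry-IGF2BP1 WT or mCherry-IGF2BP1 RQ, with 3 in each of 4 groups. All 4 groups were knocked out for the paralogs IGF2BP2 and IGF2BP3 and carried a lentiviral transgene for mCherry-tagged IGF2BP1, either wild type (WT) or RQ, in which arginines of the RGG/RG motif in the first disordered linker were replaced by glutamines. One group of each kind received 500 µM sodium arsenite for 2 h, and the other received PBS as control. RNA was poly(A)-selected from clarified lysate, and dishes were plated and grown independently. The paralog knockouts were made by CRISPR in single-cell clones, and the transgenic cells were sorted as populations by mCherry fluorescence. WT and RQ are therefore 1 population each, and the mutation and other differences between those populations cannot be told apart.

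Depth was between 22868636 and 41467020 counts per library, of which 89.5% to 97.4% fell on protein-coding genes. Transcripts of the mitochondrial genome took 21.1% to 27.9% of the counts in control and 10.8% to 13.5% in arsenite. The epithelial markers EPCAM (320 to 386.5 CPM, counts scaled to library size), KRT8, KRT18, KRT19, CDH1 and CDX2 were present in all 12 libraries, while VIL1 and CDX1 were at or below 0.219 CPM. Of the 9 markers of other cell types, PTPRC had no count, and the list summed to between 7.75 and 12.2 CPM, nearly all from the collagen gene COL1A1 (7.23 to 11.1 CPM). The epithelial markers summed to between 2203 and 2730 CPM in control and between 4312 and 4498 in arsenite.

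RNA of IGF2BP1, the gene carried by the transgene, rose in arsenite in both populations. IGF2BP1 (ENSG00000159217.10, chromosome 17) was at 10.51, 10.2 and 14.1 CPM in the WT control libraries and at 28.5, 26.9 and 29.0 in WT arsenite. In RQ it was at 14.7, 11.7 and 14.9 CPM in control and 45.1, 44.3 and 46.01 in arsenite, so that the populations overlapped in control and were apart in arsenite. Its arsenite response was 1.28 ± 0.09 on the log2 scale (± standard error of the fit, as for all differences given here) in WT and 1.71 ± 0.08 in RQ, and the difference of 0.43 ± 0.12 did not pass the test (edgeR's quasi-likelihood test, Benjamini-Hochberg adjusted p = 0.202). Counts per gene do not separate the transgene from the endogenous gene. The authors state that HCT116 cells do not express IGF2BP1, which was not checked here. In arsenite, RQ exceeded WT by 0.68 ± 0.07 (adjusted p = 5.15e-06 in edgeR), and the part of this level in the other results was not tested. The difference between responses did pass in a fit with the replicate number as a block within each treatment (adjusted p = 0.0127 in edgeR). RNA of the knocked-out paralogs was still counted, at 77.5 ± 1.71 CPM for IGF2BP2 and 113 ± 1.68 for IGF2BP3 in WT control (SD, n = 3), which does not check a knockout made in the DNA. Their responses differed between RQ and WT by 0.11 ± 0.07 and -0.03 ± 0.06, neither of which passed.

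Arsenite causes oxidative stress and binds protein thiols, and it activates several stress programs at once. In the integrated stress response (ISR), kinases phosphorylate the translation initiation factor eIF2, bulk translation falls, and the mRNA of the transcription factor ATF4 is translated more. ATF4 pairs with C/EBP family proteins and induces genes for amino acid supply, for redox balance and for feedback on growth and translation. In parallel, immediate-early genes, among them the EGR and AP-1 factors, are transcribed within minutes, and heat shock factor induces chaperones.

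Of 16 tested regulators and feedback genes of the ISR, 8 had a more positive arsenite response in RQ than in WT, as did 0.35% of all tested genes. SESN2, DDIT4 and CHAC1 rose 4.31-fold, 5.69-fold and 8.39-fold in WT and 11.97-fold, 14.5-fold and 29.6-fold in RQ. TRIB3, CEBPB and ATF3 also rose more in RQ. STC2 and ATF4 fell in WT, while their log2 responses in RQ were 0.11 and 0.10, each below a fold of 1.2. Immediate-early genes, led by EGR1, formed the next group, with smaller differences. No enzyme of amino acid synthesis and no aminoacyl-tRNA synthetase passed the test of the difference, while several, such as PSAT1, were higher in RQ in control and in arsenite alike.

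Over all 9151 tested genes, those with more than 10 CPM in at least 6 of the 12 libraries, the response to arsenite was broad in both populations. Arsenite changed 6688 genes (73.1%) in WT, with a call defined as a Benjamini-Hochberg adjusted p under 0.05 in edgeR's quasi-likelihood test and a fold above 1.2. The SD of the log2 responses over genes was 0.768 in WT and 0.798 in RQ, and the responses of the 2 populations, which share no library, had a Pearson r of 0.99 across genes, which are not independent replicates. The difference between the responses (arsenite minus control in RQ, less the same in WT) passed the test for 36 genes, or 0.393% of those tested. For 32 genes (0.35%) the difference was positive and for 4 (0.0437%) it was negative. At an unadjusted p under 0.05 there were 663 genes. For all 36 called genes the 3 differences by replicate number in RQ lay on one side of the 3 in WT, which held for 11.3% of all tested genes, but the calls rest on the same libraries. The number of calls fell to 17 without WT control replicate 1, to 18 without WT arsenite replicate 1, RQ control replicate 2, WT arsenite replicate 3 or RQ arsenite replicate 3, and to 20 without RQ control replicate 3. With the replicate number as a block within each treatment, a fit chosen after seeing the data, it was 102 (73 positive and 29 negative) and included all 36, and without any block it was 22, all among the 36. The sign of all 36 differences held in each fit that tested them. Since clarified lysates of whole dishes were measured, more RNA per cell and more cells with the RNA cannot be told apart. RNA that left with the pellet of the lysate was not measured, so a change in its share cannot be told apart either.

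**Figure D1:**
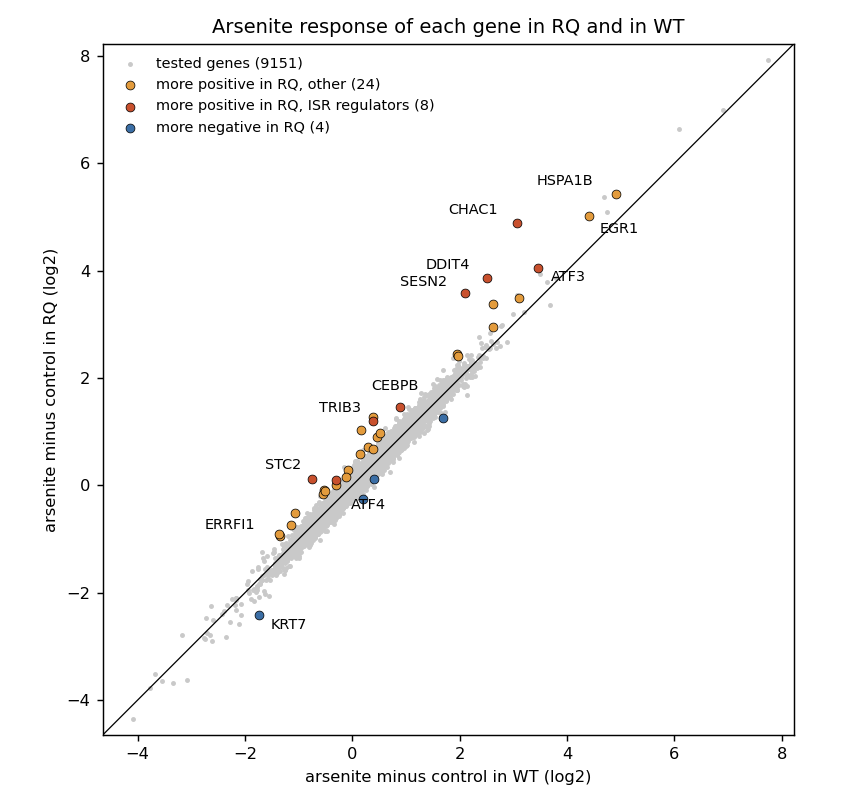
Each point is 1 of the 9151 tested genes, with its arsenite-minus-control log2 change in WT on the x axis and in RQ on the y axis, both from the fit to the 12 libraries. The line marks equal responses, and the coloured points are the 36 called genes. CHAC1, SESN2 and DDIT4 lie farthest above the line, by 1.82, 1.47 and 1.35.

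Of the 18 ISR regulators listed, 16 were tested and 8 had a more positive response in RQ, against 0.35% of all tested genes, with none in the other direction. The median difference over the 16 was 0.42 against -0.003 over all tested genes, and 13 were positive, against 49% of all tested genes. NUPR1 and VLDLR did not reach the level filter. SESN2 (ENSG00000130766.5, chromosome 1, 28259518 to 28282491), a stress sensor that restrains the growth kinase complex mTORC1, was at 13.7, 13.0 and 14.9 CPM in WT control and 12.3, 9.23 and 12.2 in RQ control. It reached 57.8, 58.3 and 62.6 CPM in WT arsenite and 117, 129 and 161 in RQ arsenite. The arsenite libraries were thus well apart, and the RQ control libraries lay slightly below those of WT. Its response differed by 1.47 ± 0.12 on the log2 scale (edgeR, adjusted p = 6.59e-07).

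DDIT4 (ENSG00000168209.6, chromosome 10, 72273924 to 72276036), another inhibitor of mTORC1 signalling, had 15.9, 17.3 and 17.98 CPM in WT control and 19.6, 19.4 and 16.2 in RQ control, which overlapped. In arsenite it had 89.0, 99.1 and 103 CPM in WT and 231, 270.4 and 302 in RQ. The difference between responses was 1.35 ± 0.11 (edgeR, adjusted p = 6.95e-07). CHAC1 (ENSG00000128965.13, chromosome 15, 40952962 to 40956512), an enzyme that cleaves the antioxidant glutathione, was low and overlapping in control, at 2.77, 1.32 and 3.11 CPM in WT and 2.03, 3.23 and 2.51 in RQ. It passed the level filter only through the arsenite libraries, with 19.3, 20.6 and 22.4 CPM in WT and 66.2, 76.6 and 84.7 in RQ, and its difference was the largest of the 36 at 1.82 ± 0.23 (edgeR, adjusted p = 0.00024).

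TRIB3 (ENSG00000101255.13, chromosome 20), a pseudokinase that acts in negative feedback on ATF4, differed between the populations in both treatments. Its level was 40.2, 39.6 and 40.7 CPM in WT control and 70.1, 81.1 and 89.9 in RQ control. In arsenite it was 49.9, 52.3 and 56.0 CPM in WT and 144, 172 and 244 in RQ, the widest spread of these groups. The RQ-minus-WT difference went from 0.99 ± 0.09 in control to 1.80 ± 0.09 in arsenite, and the difference of responses was 0.82 ± 0.12 (edgeR, adjusted p = 0.00189). It missed the threshold in the fit without a replicate block (adjusted p = 0.0714) and passed in the other 23 fits, the 1.5-fold threshold included.

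STC2 (ENSG00000113739.11, chromosome 5), which encodes a secreted glycoprotein and belongs to the ATF4 program, fell in WT only by the test within each population. WT libraries had 115, 117 and 96.9 CPM in control and 58.5, 68.3 and 66.7 in arsenite. RQ libraries had 143, 139 and 119.9 CPM in control and 137, 146 and 149.7 in arsenite, above WT in both treatments. The difference was 0.87 ± 0.10 (edgeR, adjusted p = 5.15e-05). ATF4 itself (ENSG00000128272.18, chromosome 22) was abundant and overlapped in control, with 743, 808 and 765 CPM in WT and 752, 779.5 and 793 in RQ. In arsenite its RNA was at 619.8, 629 and 634 CPM in WT and 791, 826 and 879 in RQ, without overlap. The difference of 0.40 ± 0.06 (edgeR, adjusted p = 0.00189) is small beside those of SESN2 or CHAC1, and it concerns the RNA only, since ATF4 is regulated at translation.

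The bZIP factor genes CEBPB and ATF3 had similar differences from different starting points. CEBPB (chromosome 20), a partner of ATF4, was at 72.3, 73.7 and 79.9 CPM in WT arsenite and 111, 116 and 139 in RQ arsenite, from 42.4, 40.2 and 39.4 and 44.8, 44.8 and 42.5 in control. Its difference was 0.58 ± 0.09 (edgeR, adjusted p = 0.00343). ATF3 (chromosome 1), a repressor induced by ATF4 and also an immediate-early gene, rose from 42.4, 39.7 and 43.2 to 453, 474 and 449.6 CPM in WT and from 34.5, 28.1 and 37.8 to 581, 542 and 536 in RQ. For ATF3 the RQ libraries were below WT in control (-0.32 ± 0.07) and above WT in arsenite (0.27 ± 0.06), and the difference was 0.58 ± 0.09 (edgeR, adjusted p = 0.00344). All 8 ISR regulators kept the call in each of the 12 fits that left out 1 library.

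Members of the list that did not pass included DDIT3, which encodes CHOP, at 0.44 ± 0.11 (edgeR, adjusted p = 0.0852), CEBPG at 0.30 ± 0.08 and PPP1R15B at 0.28 ± 0.08. These 3 passed with the block within each treatment, with adjusted p-values of 0.00655, 0.00673 and 0.000849 in edgeR. The eIF2 phosphatase subunit gene PPP1R15A rose by 2.23 in WT and 2.13 in RQ, a difference of -0.10 ± 0.07. EIF2S1, the gene of the phosphorylated eIF2 subunit, differed by -0.01 ± 0.08.

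**Figure D2:**
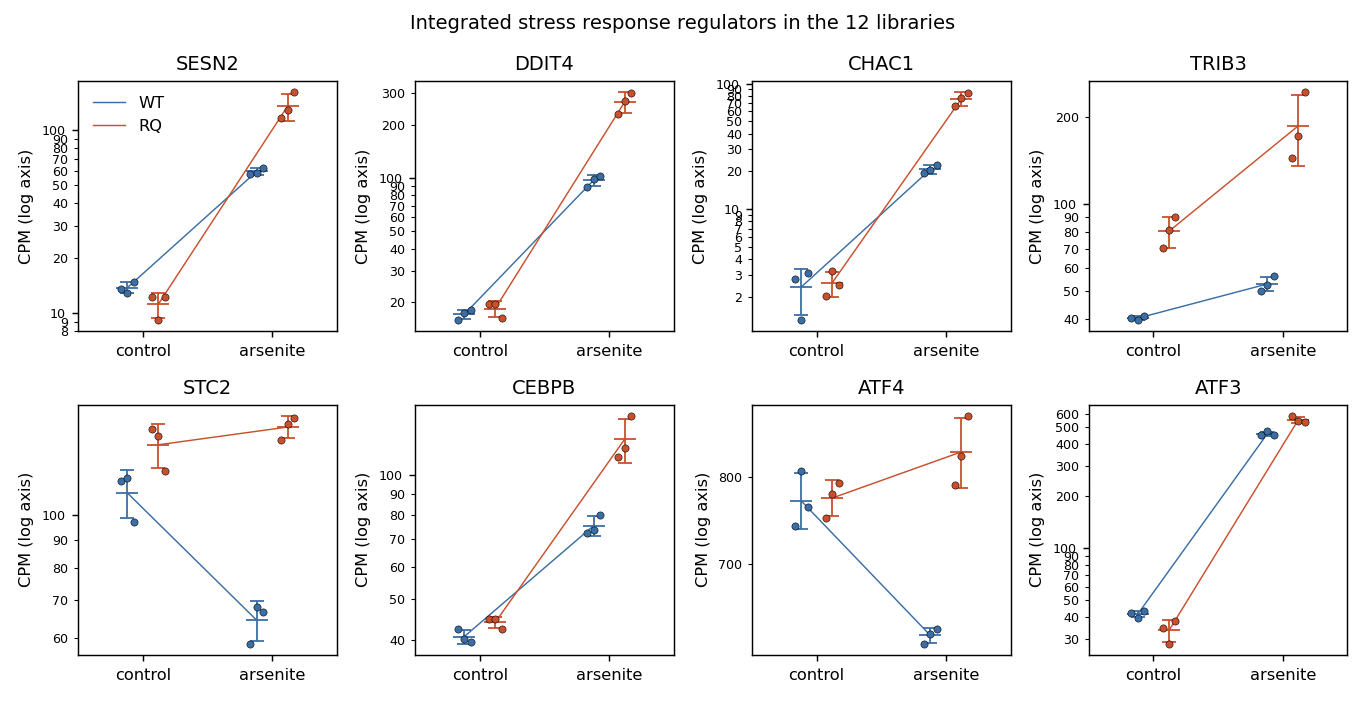
TMM-scaled CPM (log axis) of the 8 called ISR regulators in each of the 12 libraries, WT in blue and RQ in red, with the mean and SD of 3 libraries and a line from control to arsenite. The arsenite points of RQ lie above those of WT in all 8 panels, while in control only STC2, TRIB3 and CEBPB have all RQ points above WT.

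ATF4 and its partners bind the C/EBP-ATF element, and RefSeq promoters (GRCh38.p14, 250 bases before to 50 after the gene start) were searched for the letters TGATGNAA on both strands. A promoter was given for 26 of the 32 genes with a positive difference, and the element was found in 3 of them (11.5%), against 1003 of 27305 promoters (3.7%) and 111 of 7539 promoters of tested genes (1.5%). ARC, GEM, LRATD2, PARD6B and VEGFA were among those not in the table, nor were the lowered genes KRT7, PLEC and POP1. The windows below are shown because CHAC1 and ATF3 are ISR members with a match, and PLK3 is the only other one. They are read along the gene, with the element in capitals, at chr15:40953251-40953280 for CHAC1 (element on the opposite strand, 209 bases upstream of the RefSeq start, which lies inside the gene as the files annotate it), chr1:212565205-212565234 for ATF3 (191 bases upstream of a RefSeq start that also lies inside the annotated gene) and chr1:44800233-44800262 for PLK3 (133 bases upstream of its RefSeq start), all on the plus strand.
CHAC1: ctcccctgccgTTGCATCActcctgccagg
ATF3: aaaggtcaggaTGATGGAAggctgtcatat
PLK3: gagcttctgggTGATGTAAggccgggaatg
The heat shock element GAANNTTC was found in 2 of the 26 promoters (7.7%), HSPA1B and ITPRIP, against 6.9% of all promoters and 4.2% of those of tested genes. The antioxidant element TGACNNNGC was found in 3 (11.5%), JUND, STC2 and TRIB3, against 13.6% of all promoters and 15.5% of those of tested genes. A match is a description of the letters in this window and not evidence of binding.

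Amino acid supply, the metabolic arm of the ATF4 program, differed between the populations but mostly not in its response. Of 12 tested amino acid synthesis genes none passed (1 at an unadjusted p under 0.05, 0 in DESeq2, and GOT1 alone with the block within each treatment), with a median difference of 0.03. Of 20 cytosolic aminoacyl-tRNA synthetases, which charge tRNAs, none passed either (0 at an unadjusted p under 0.05 and 0 in DESeq2), with differences between -0.09 and 0.16. The median of RQ minus WT in control and in arsenite was 0.33 and 0.41 for the synthesis genes and 0.18 in both treatments for the synthetases. The 3 RQ control libraries lay on one side of the 3 WT control libraries for 8 of the 12 synthesis genes, against 17.4% of all tested genes, and in arsenite for 11 of 12, against 29.7%.

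PSAT1, an enzyme of serine synthesis, shows this pattern. It was at 91.9, 68.2 and 78.8 CPM in WT control and 182, 174 and 202 in RQ control. In arsenite it was at 132, 154 and 146 CPM in WT and 274, 320.3 and 371 in RQ. RQ was higher by 1.22 ± 0.09 in control and by 1.16 ± 0.09 in arsenite, so that the responses of 0.85 and 0.79 differed by only -0.06 ± 0.13. MTHFD2, of mitochondrial folate metabolism, was higher in RQ by 0.49 in control and 0.48 in arsenite, and was called in both. PYCR1, of proline synthesis, had 0.20 and 0.21 without a call. SHMT2, GARS1, YARS1, VARS1 and IARS1 had differences of responses of 0.07 ± 0.07, 0.16 ± 0.09, -0.01 ± 0.09, 0.09 ± 0.08 and 0.05 ± 0.07. ASNS, a classic ATF4 target, had at most 223 reads per library and did not reach the level filter. An annotated transcript overlaps it on the same strand, so some of its reads may not have been counted.

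Among 9 tested amino acid transporters SLC38A2 passed, and with the block within each treatment SLC7A1 did as well (edgeR, adjusted p = 0.011). SLC38A2 (chromosome 12), a stress-regulated carrier of neutral amino acids, was at 284, 273 and 249 CPM in WT control and 296, 249 and 254 in RQ control, which overlapped. It rose to 374, 394 and 387 CPM in WT and 499, 533 and 536 in RQ, a difference of 0.45 ± 0.08 (edgeR, adjusted p = 0.0126). The call was lost in 5 of the 12 fits that left out 1 library, without WT control 1, WT arsenite 1, RQ control 2, RQ control 3 or RQ arsenite 3 (adjusted p up to 0.104). SLC7A5, SLC3A2, SLC1A5 and SLC38A1 did not pass, with differences of 0.08 ± 0.09, 0.22 ± 0.12, 0.14 ± 0.10 and 0.01 ± 0.07. All 4 were called higher in RQ in both treatments, by 0.29 to 0.59 in control and 0.29 to 0.68 in arsenite.

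**Figure D3:**
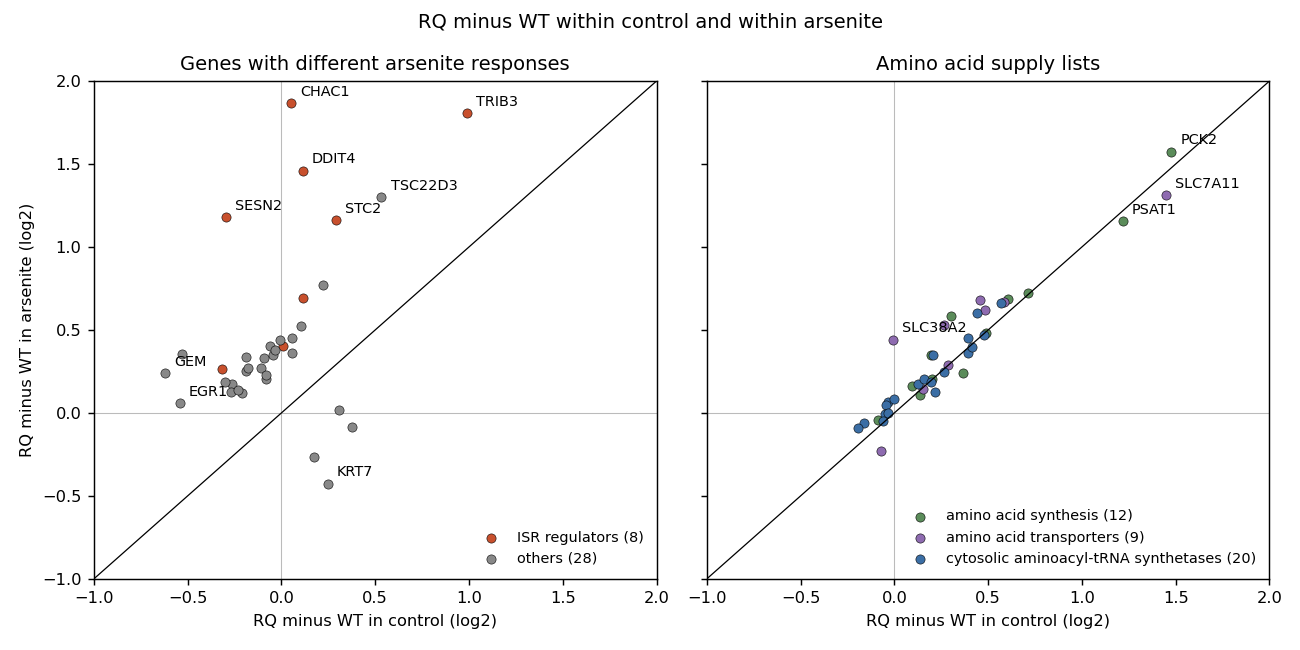
RQ minus WT (log2) in control on the x axis and in arsenite on the y axis, from the same fit, for the 36 called genes (left) and for the tested members of the amino acid supply lists (right). The line marks equal differences, so distance from it is the difference of responses. PCK2, PSAT1 and SLC7A11 are far to the right but near the line, while SESN2, DDIT4 and CHAC1 are far above it.

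Immediate-early genes were the other program with several calls. Of 25 tested, 5 had a more positive response in RQ (EGR1, ATF3, ARC, JUNB and JUND), against 0.35% of all tested genes. None had a more negative one. The median difference was 0.24, and 22 of 25 were positive, against 49% of all tested genes. EGR1 (ENSG00000120738.8, chromosome 5, 138465479 to 138469303), a zinc finger factor, was at 105, 102 and 118 CPM in WT control and 78.7, 67.9 and 76.3 in RQ control, without overlap. In arsenite it reached 2411, 2105 and 2394 CPM in WT and 2483, 2204 and 2503 in RQ, which overlapped. Its difference of 0.60 ± 0.06 (edgeR, adjusted p = 4.04e-05) thus came with a lower control level in RQ (-0.54 ± 0.05) and similar arsenite levels (0.06 ± 0.04), and it kept the call in each fit.

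JUNB and JUND, which encode AP-1 subunits, differed less. JUNB was at 88.8, 78.7 and 91.9 CPM in WT control and 76.8, 67.7 and 79.6 in RQ control, and at 541, 506 and 553 and 559, 565 and 614 in arsenite, with a difference of 0.33 ± 0.07 (edgeR, adjusted p = 0.0219). JUND was called in neither population, at -0.13 in WT and 0.16 in RQ, and differed by 0.29 ± 0.06 (edgeR, adjusted p = 0.0258). ARC, better known from synapses, rose 3.90-fold in WT and 5.31-fold in RQ, a difference of 0.45 ± 0.09 (edgeR, adjusted p = 0.0188). These calls depended on single libraries: ARC lost it in 7 of the 12 fits that left out 1, JUNB in 8 and JUND in 10, each of them without WT control replicate 1 (adjusted p of 0.143, 0.143 and 0.1 in edgeR). FOSB at 0.55 ± 0.15, JUN at 0.35 ± 0.09, EGR3 at 0.47 ± 0.13 and KLF10 at 0.28 ± 0.06 did not pass, although they did with the block within each treatment. FOS, at 0.18 ± 0.15, EGR2, at 0.10 ± 0.21, and MYC, at -0.05 ± 0.06, passed in neither.

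Negative regulators of growth factor signalling contributed 2 genes, of 15 tested, against 0.35% of all tested genes, with a list median of 0.17. ERRFI1 (ENSG00000116285.13, chromosome 1), an inhibitor of the EGF receptor, was at 1628, 1589 and 1641 CPM in WT control and 1640, 1724 and 1692 in RQ control. It fell in both, to 632, 645 and 639 CPM in WT and 873, 868 and 879.5 in RQ, with a narrow spread and no overlap. The difference was 0.39 ± 0.06 (edgeR, adjusted p = 0.00133), and the call held without each of the 12 libraries. DUSP6, an ERK phosphatase, rose to 160.1, 168 and 163 CPM in WT arsenite and 203, 213 and 215 in RQ arsenite, a difference of 0.30 ± 0.07 (edgeR, adjusted p = 0.043). It lost the call in 10 of the 12 fits that left out 1 library, with the highest adjusted p, 0.221, without WT arsenite replicate 3. The EGF receptor ligand AREG fell by 1.69 in WT and by 1.25 in RQ, and its difference of 0.44 ± 0.10 did not pass (edgeR, adjusted p = 0.0779), although it did with the block within each treatment (8.05e-07).

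Cytosolic chaperone genes had a median log2 response to arsenite of 1.73 in WT and 1.93 in RQ. Of 22 tested cytosolic chaperones, HSPA1B passed, against 0.35% of all tested genes. A positive difference was found for 20 of 22, against 49% of all tested genes, with a median of 0.12. Such shares also occurred in lists without a call, with 19 of 23 cholesterol synthesis genes and 7 of 7 NF-kB feedback genes positive. Other lists without a call had low shares, such as 7 of 23 mitosis genes. HSPA1B, an inducible HSP70 gene, rose from 23.3, 20.7 and 24.8 to 693, 681 and 698 CPM in WT and from 20.4, 21.1 and 19.0 to 937, 836 and 842 in RQ, a difference of 0.52 ± 0.09 (edgeR, adjusted p = 0.00372). Reads of HSPA1B and of its near-identical copy HSPA1A can be divided arbitrarily, and HSPA1A, at a mean of 13.0 CPM, had 0.68 ± 0.32 without passing. The median of RQ minus WT over the list was -0.13 in control and 0.006 in arsenite. Chaperones such as DNAJB1, at 0.11 ± 0.06, and HSP90AA1, at 0.13 ± 0.10, did not pass, and CHORDC1 passed with the block within each treatment.

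The p53 list held 2 called genes, both with a more positive response in RQ, as had 0.35% of all tested genes. Of 21 p53 targets, PMAIP1, which encodes the BH3-only protein NOXA, and PLK3, a polo-like kinase, passed at 0.38 ± 0.07 and 0.31 ± 0.06 (edgeR, adjusted p = 0.017 and 0.0333). CDKN1A and MDM2, the best-known p53 targets, had 0.13 ± 0.07 and -0.04 ± 0.06 and did not pass, and the list median was 0.05. GDF15, a secreted stress cytokine on the same list, had 0.50 ± 0.12 and an adjusted p of 0.0697 in edgeR. GDF15 and GADD45A passed with the block within each treatment.

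BTG1, which recruits the CCR4-NOT deadenylase, was the called member of 8 mRNA decay regulators, at 68.0, 74.3 and 76.1 CPM in WT arsenite and 85.8, 86.3 and 103 in RQ arsenite. Its difference was 0.43 ± 0.08 (edgeR, adjusted p = 0.0117). VEGFA, an angiogenic growth factor that ATF4 also induces, was the called member of 15 hypoxia and glucose genes at 0.42 ± 0.08 (edgeR, adjusted p = 0.0207). GEM, a small GTPase, was the called member of 15 cytoskeletal SRF and YAP targets. It was at 23.1, 20.9 and 23.0 CPM in WT control and 15.0, 13.7 and 15.0 in RQ control, and at 20.9, 25.97 and 28.8 and 27.2, 30.7 and 31.6 in arsenite, where the populations overlapped. Its difference of 0.86 ± 0.12 (edgeR, adjusted p = 0.000745) held in every fit. BTG1 lost the call in 5 of the 12 fits that left out 1 library, VEGFA and PMAIP1 in 6 and PLK3 in 10, each of them without WT control replicate 1 (edgeR, adjusted p of 0.1, 0.136, 0.1 and 0.158).

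**Figure D4:**
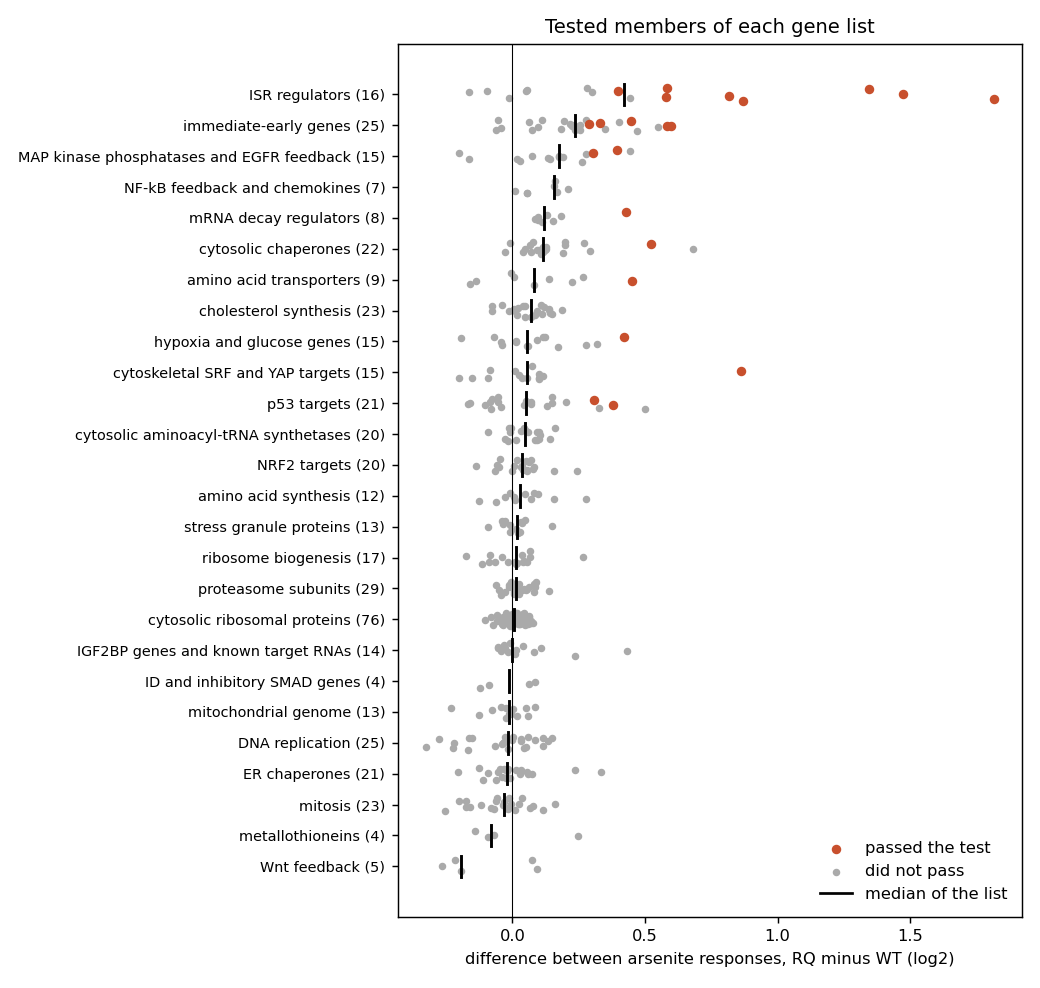
Difference between arsenite responses, RQ minus WT (log2, x axis), for each tested member of 26 gene lists, with the number tested in parentheses. Red points passed the test, grey points did not, and the black bar is the median of the list. The ISR regulators have the highest median, 0.42, followed by the immediate-early genes at 0.24.

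Of the 32 genes with a positive difference, 10 were in no list. ITPRIP, which encodes a protein that interacts with the inositol trisphosphate receptor, had the largest difference among them. It was at 15.2, 13.0 and 13.7 CPM in WT control and 10.6, 9.19 and 9.17 in RQ control, and rose to 19.1, 16.9 and 18.7 in WT and 24.9, 21.9 and 23.3 in RQ. RQ was thus below WT in control and above it in arsenite, without overlap in either, and the difference was 0.89 ± 0.10 (edgeR, adjusted p = 5.91e-05). TSC22D3, the glucocorticoid-induced leucine zipper, had 3.39, 2.36 and 3.52 CPM in WT control and 4.74, 4.50 and 4.34 in RQ control. It passed the level filter through the arsenite libraries, at 18.6, 19.1 and 19.6 CPM in WT and 44.1, 45.96 and 51.4 in RQ, with a difference of 0.77 ± 0.15 (edgeR, adjusted p = 0.0219).

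LRATD2 fell in both populations, from 62.0, 58.8 and 66.8 to 26.6, 30.7 and 32.0 CPM in WT and from 72.4, 67.6 and 78.7 to 47.3, 48.3 and 57.6 in RQ, a difference of 0.55 ± 0.08 (edgeR, adjusted p = 0.00154). PARD6B, a cell polarity protein, and STK40, a pseudokinase, also fell in both. SIAH2, a ubiquitin ligase, and GRPEL2, a mitochondrial co-chaperone, fell in WT and had -0.09 and -0.11 in RQ. The differences of these 4 were 0.47 ± 0.08, 0.42 ± 0.08, 0.45 ± 0.08 and 0.39 ± 0.08. NR1D1, the circadian repressor REV-ERB alpha, rose in both, with a difference of 0.49 ± 0.09. SERTAD1, a transcriptional coregulator, had 0.14 in WT and rose by 0.58 in RQ, a difference of 0.44 ± 0.07. SOWAHC, an ankyrin repeat gene, differed by 0.37 ± 0.07. The adjusted p-values of these 7 genes were between 0.00327 and 0.0221 in edgeR. ITPRIP, LRATD2 and SERTAD1 kept the call without each of the 12 libraries. The other 7 lost it without at least 1, PARD6B only without WT arsenite replicate 3 (edgeR, adjusted p = 0.0507) and TSC22D3 in 8 fits (up to 0.215 without WT control replicate 1). NR1D1, GRPEL2, SOWAHC and STK40 lost it in 4, 7, 9 and 9 fits, the one without WT control replicate 1 among them, and SIAH2 without RQ control replicate 1, RQ control replicate 3 or RQ arsenite replicate 3.

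**Figure D5:**
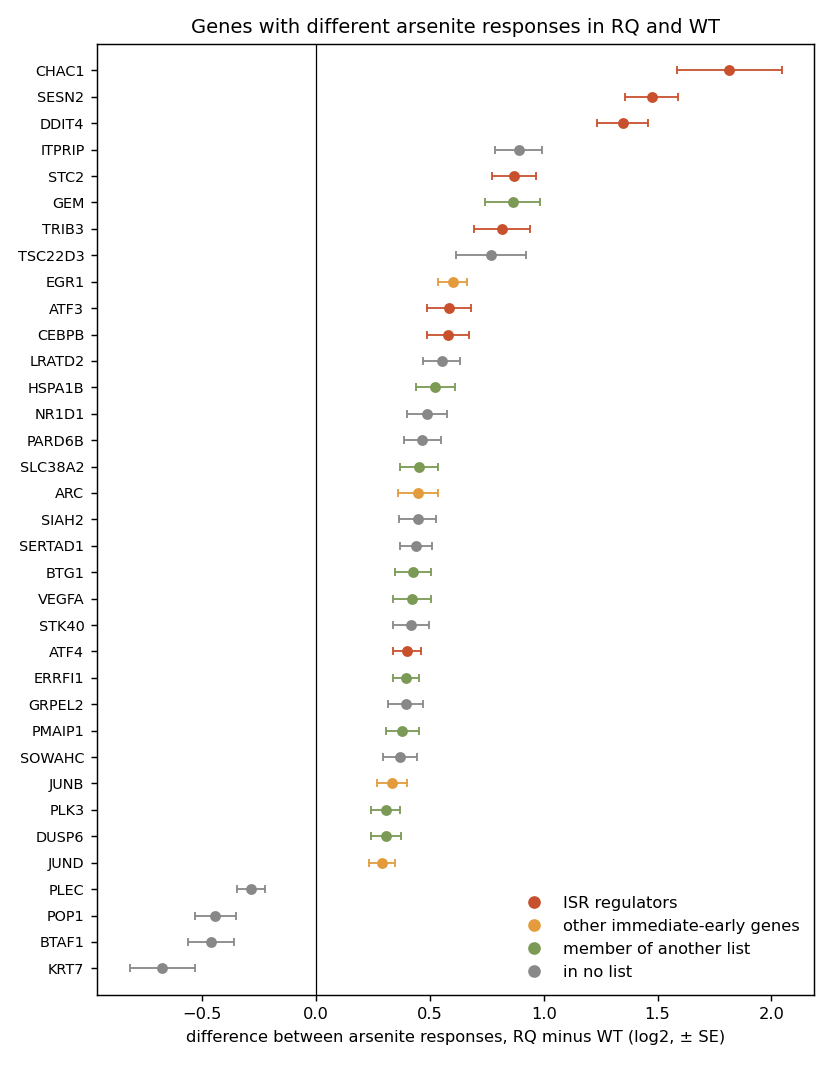
Difference between arsenite responses, RQ minus WT (log2, x axis), of 35 called genes, with the standard error of the fit to 12 libraries. The 8 ISR regulators are in red and 5 of them are among the 7 largest differences.

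The 4 genes with a negative difference were POP1, PLEC, KRT7 and BTAF1, and none was in a list. None of the 4 kept the call in either fit to all 24 libraries. Without a replicate block only POP1 kept it, and with library totals only KRT7 did. KRT7, a keratin that passed the level filter through its control libraries, fell from 16.3, 19.4 and 15.8 to 5.65, 5.05 and 4.92 CPM in WT and from 19.1, 22.8 and 19.2 to 3.79, 3.73 and 3.97 in RQ, a difference of -0.68 ± 0.14 (edgeR, adjusted p = 0.0387). POP1, a subunit of RNase P and RNase MRP, rose from 15.8, 16.3 and 18.5 to 55.1, 53.6 and 54.2 CPM in WT and from 18.7, 18.5 and 19.8 to 46.7, 44.8 and 43.8 in RQ, a difference of -0.44 ± 0.09 (edgeR, adjusted p = 0.0258). PLEC, the cytoskeletal linker plectin, was higher in RQ in control, at 281, 286 and 289 against 234, 229 and 229 CPM, and overlapped in arsenite. Its difference was -0.29 ± 0.06 (edgeR, adjusted p = 0.0374), and that of BTAF1, an ATPase that removes TBP from DNA, was -0.46 ± 0.10 (edgeR, adjusted p = 0.0499). POP1 lost the call in 9 and the other 3 in 10 of the 12 leave-one-out fits, where the highest adjusted p in edgeR was 0.169 for POP1 without WT control replicate 1, 0.209 for PLEC without WT arsenite replicate 1, 0.214 for KRT7 without RQ arsenite replicate 2 and 0.235 for BTAF1 without RQ control replicate 2.

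The 8 genes next in p on this side did not pass, although all 8 did with the block within each treatment (edgeR, adjusted p between 0.000381 and 0.0125). They were FJX1 at -0.47 ± 0.10, FAM210A at -0.31 ± 0.07, IFFO2 at -0.52 ± 0.12, BCOR at -0.36 ± 0.08, ZNF276 at -0.35 ± 0.09, TADA2B at -0.40 ± 0.10, ONECUT3 at -0.32 ± 0.08 and CCNF at -0.28 ± 0.07, with adjusted p-values from 0.0531 to 0.118 in edgeR. BCOR encodes a corepressor and CCNF a cyclin of the F-box family.

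No member passed in the remaining lists. Of 21 endoplasmic reticulum chaperones, 20 NRF2 targets and 23 cholesterol synthesis genes none was called (2, 1 and 1 at an unadjusted p under 0.05, and 0 in DESeq2), with medians of -0.02, 0.04 and 0.07. The 76 cytosolic ribosomal proteins had differences between -0.10 and 0.08, the 29 proteasome subunits between -0.06 and 0.14 and the 13 transcripts of the mitochondrial genome between -0.23 and 0.09, and none in the 3 lists had an unadjusted p under 0.05 or passed in DESeq2. The 13 stress granule proteins had a median of 0.02, the 17 ribosome biogenesis genes 0.01, the 23 mitosis genes -0.03 and the 25 DNA replication genes -0.02. Of these 4 lists none had a call in edgeR or DESeq2, with 1, 2, 5 and 5 genes at an unadjusted p under 0.05. The 4 metallothioneins, 7 NF-kB feedback genes, 5 Wnt feedback genes, 4 ID and SMAD genes and 14 IGF2BP genes and known target RNAs had medians of -0.08, 0.16, -0.19, -0.01 and 0, again with none called by either tool (1, 1, 2, 0 and 2 at an unadjusted p under 0.05). The 6 tested epithelial markers had a median of 0.05 and none passed in either tool or at an unadjusted p under 0.05. With the block within each treatment, HERPUD1 of the endoplasmic reticulum and RRP12 of ribosome biogenesis passed with a more positive response in RQ, and CCNE1 of DNA replication and DKK1 of Wnt feedback with a more negative one.

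The called genes were also divided by how they responded. By the sign of the fitted responses, 20 genes were positive in both populations and more so in RQ, 7 were negative in both and less so in RQ, and 6 had opposite signs. POP1 and PLEC were positive in both and less so in RQ, and KRT7 was negative in both and more so in RQ. The response in WT was itself called for 31 of the 36, against 73.1% of all tested genes. Of the 32 genes with a positive difference, 22 were called between RQ and WT in arsenite, against 2.39% of all tested genes, and 10 in control, against 2.61%, contrasts that enter the difference itself. In control 3 of the 10 were higher in RQ (STC2, TRIB3 and TSC22D3) and 7 lower, EGR1, ITPRIP, GEM, SERTAD1, ATF3 and NR1D1 among them. The libraries of RQ and WT lay apart in arsenite for 28 of the 32 genes, against 29.7% of all tested genes, and in control for 17, against 17.4%.

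The same genes were compared with the responses of S181E and Y396E, mutants in which a phosphorylation site of a linker is replaced by glutamate, in a fit to the 24 libraries with mCherry-IGF2BP1. Y396E arsenite replicate 3 had counts for 13897 genes, against at least 20850 in the other 23 libraries. CHAC1 did not reach the level filter of that fit, which left 31 of the 32 genes. The RQ response was called more positive than that of S181E for 22 of the 31 and more negative for 2, against 13.3% and 8.94% of the 9092 tested genes. Against Y396E it was more positive for 23 and more negative for 1, against 14.5% and 11.6%. Without Y396E arsenite replicate 3 it was more positive for 24 of 30 genes, against 1368 of 8923 tested genes. In that fit it was more negative for 2, and the share over all tested genes on this side was not counted. Both comparisons use the RQ libraries that chose the genes, and the values are therefore given side by side only.

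SESN2 differed by 1.93 ± 0.15 against S181E and 1.93 ± 0.15 against Y396E, and DDIT4 by 1.34 ± 0.14 and 1.29 ± 0.14. TRIB3 differed by 0.94 ± 0.17 and 0.95 ± 0.17, STC2 by 1.13 ± 0.10 and 1.10 ± 0.10, and ATF4 by 0.53 ± 0.06 against each. All 5 genes passed in both comparisons (adjusted p of 0.000377 or less in edgeR). GEM, EGR1, ARC, ITPRIP, LRATD2 and STK40 had another order, with S181E and Y396E responses both called more positive than that of WT. The S181E response exceeded that of WT by 1.30 ± 0.15 for GEM and 0.42 ± 0.09 for EGR1. The Y396E response exceeded it by 1.19 ± 0.15 and 0.39 ± 0.09. For ARC these differences were 0.815 ± 0.1 and 0.829 ± 0.101. Other genes had S181E and Y396E responses both called more negative than that of WT. Among them were SESN2, at -0.443 ± 0.145 and -0.448 ± 0.145, and HSPA1B, at -1.319 ± 0.09 and -1.184 ± 0.091. These contrasts use the WT libraries that chose the genes. The share of all tested genes with such calls was not counted, so these genes cannot be set against it. RQ minus S181E was -0.43 ± 0.16 for GEM (adjusted p = 0.0415 in edgeR) and 0.18 ± 0.09 for EGR1. ARC was called more negative in RQ than in S181E (-0.363 ± 0.101) and than in Y396E (-0.377 ± 0.101).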

How the data were processed

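RNA-seq was read from 12 libraries, with 3 each of WT and RQ in control and in arsenite, and 24 libraries were used where S181E and Y396E entered. Groups were taken from the labels. The deposited values were raw counts per gene, which the authors made from directional poly(A) libraries with STAR 2.7.11b on hg38 and featureCounts 2.0.6 (strand setting 2) on GENCODE 46. Symbols and gene types came from GENCODE 44, which matched 62541 of 63086 genes (99.1%), and coordinates are those in the files. No 2 libraries held identical counts. The replicate samples are independently grown dishes of 1 population, so p-values measure the spread between dishes.

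Protein-coding genes with more than 10 CPM in at least 6 of 12 libraries were kept (9151) and scaled by TMM (0.902 to 1.082). The difference between arsenite responses was tested with edgeR 4.0.16 (R 4.3.3) by the quasi-likelihood test with group and replicate number as terms, leaving 6 residual degrees of freedom. All p-values are two-sided, and they were adjusted by Benjamini-Hochberg over all tested genes. A call needed an adjusted p under 0.05 and a fold above 1.2. The biological coefficient of variation was 0.0466 and the median standard error of the difference 0.087, with depths of 22868636 to 41467020 counts. CPM values per library are TMM-scaled. The code was tested on simulated data.

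Alternatives were no block, all 24 libraries, DESeq2 1.42.0, RLE scaling or library totals, other filters, all gene types, other fold thresholds, leaving out each library and, added after seeing the data, a block within each treatment. The populations, the gene lists and the tests were chosen with earlier results of these data known. Genes were named by a rule: IGF2BP1 to IGF2BP3, the 12 largest called differences in each direction with RQ and WT apart by replicate number (filled up by the smallest p-values where fewer were called), all called list members, and up to 4 abundant uncalled members of each amino acid or ISR list. Other uncalled genes given as examples, and the called genes outside that rule, were chosen after their values were seen. Of the 36 called genes, 1 is not reported here.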

Additional observations from a re-analysis of the deposited data

Results flagged for a closer look

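The 35 genes below stood out because their arsenite response differed between RQ and WT by the test of that difference itself (edgeR's quasi-likelihood test, Benjamini-Hochberg adjusted p under 0.05 over 9151 genes, fold above 1.2). Values are the response in RQ less that in WT, on the log2 scale. Among the ISR regulators they were 1.82 for CHAC1, 1.47 for SESN2, 1.35 for DDIT4, 0.87 for STC2, 0.82 for TRIB3, 0.58 for ATF3, 0.58 for CEBPB and 0.40 for ATF4. The other immediate-early genes were EGR1 at 0.60, ARC at 0.45, JUNB at 0.33 and JUND at 0.29. Members of other lists were GEM at 0.86, HSPA1B at 0.52, SLC38A2 at 0.45, BTG1 at 0.43, VEGFA at 0.42, ERRFI1 at 0.39, PMAIP1 at 0.38, PLK3 at 0.31 and DUSP6 at 0.30. In no list were ITPRIP at 0.89, TSC22D3 at 0.77, LRATD2 at 0.55, NR1D1 at 0.49, PARD6B at 0.47, SIAH2 at 0.45, SERTAD1 at 0.44, STK40 at 0.42, GRPEL2 at 0.39 and SOWAHC at 0.37. The negative differences were KRT7 at -0.68, BTAF1 at -0.46, POP1 at -0.44 and PLEC at -0.29.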

How the results depend on the processing

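The 36 calls became 22 with no replicate block or with all 24 libraries and the block. Without a filter on low counts there were 82, with 52 positive and 30 negative. Of those, 35 were among the 36, and 9 were genes that the filter had left out. The 36 became 19 with 24 libraries and no block, 10 at a fold above 1.5, and 17 to 45 when 1 library was left out. They stayed within 1.5 times, at 31 to 45, with DESeq2 (45, including all 36), RLE scaling (36), library totals (31), another filter (40), all gene types (35) or no fold threshold (36). SESN2, DDIT4, CHAC1, STC2, EGR1, GEM and ITPRIP were called in each alternative that tested them, and 15 genes in each fit that left out 1 library. No called gene changed sign in any of these fits, and the causes of lost calls were not tested.

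To check the pairing by replicate number, deviations from group means were correlated. Same-numbered WT and RQ libraries of 1 treatment deviated together (r 0.137 to 0.517 in 6 pairs). With different numbers, r was -0.461 to 0.116 in 12 pairs. Across treatments, r was 0.015 to 0.082 in 12 same-numbered pairs and -0.089 to 0.062 in 24 pairs with different numbers. The single block and the differences by replicate number thus join libraries across treatments whose r was low. A block within each treatment, added after seeing the data, gave 102 calls.

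Single genes were followed through these fits only if they were called or named by the rule. Among those, signs changed only in 7 uncalled genes near 0. Leaving out 1 library gave -0.03 to 0.17 for SLC7A5, -0.25 to 0.044 for PSAT1, -0.075 to 0.044 for EIF2S1, -0.103 to 0.071 for YARS1, -0.081 to 0.047 for MTHFD2, -0.033 to 0.041 for PYCR1 and -0.053 to 0.058 for SLC38A1. Library totals gave 0.002 for EIF2S1, 0 for YARS1 and 0.004 for MTHFD2. PYCR1 had -0.006 and SLC38A1 -0.007 with the other filter, and -0.016 and -0.017 without one. Genes under the filter of 10 CPM were not tested in the main fit.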

Other observations

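Without the filter on low counts, 6924 further protein-coding genes entered and 9 of them (0.13%) were called by edgeR's quasi-likelihood test. They were chosen after their values were seen. ADM2, which encodes the peptide hormone intermedin, went from 6.69 ± 0.573 to 9.57 ± 0.759 CPM in WT and from 8.73 ± 0.995 to 19.5 ± 3.02 in RQ (SD, n = 3), a difference between responses of 0.65 ± 0.14 on the log2 scale (SE). ISL2, a LIM homeobox factor, went from 1.84 ± 0.158 to 8.14 ± 0.686 CPM in WT and from 2.04 ± 0.402 to 15.5 ± 1.43 in RQ, a difference of 0.80. ARL14, at 1.39 with 26 to 75 reads per library, and BEST1, at 0.72, were the other positive ones.

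Among the 5 negative ones was EPPK1, which like PLEC encodes a plakin. EPPK1 went from 3.99 ± 0.266 to 7.47 ± 0.993 CPM in WT and from 4.93 ± 0.713 to 5.39 ± 0.816 in RQ (SD, n = 3), a difference of -0.77 ± 0.18. LIN7B had -0.90, ZNF469 -0.69, HIC2 -0.54 and KIF26B -3.51, the last with 1 to 20 reads per library. SLC1A4, a transporter of neutral amino acids under the filter, was at 3.59 ± 0.359 CPM in WT control, 6.14 ± 0.742 in WT arsenite, 7.41 ± 0.21 in RQ control and 15.6 ± 3.15 in RQ arsenite, and its difference of 0.30 ± 0.16 did not pass. Over the 167 genes of other types that reached the filter, none was called.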
